A study of Homo sapiens with 22 samples.

Results

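The mRNA of 10 genes of glucose uptake and glycolysis was followed in acute myeloid leukemia (AML) cells treated with FP54, a small molecule made to degrade FTO, an RNA demethylase that removes the methyl group of m6A. The genes were taken by symbol from the 20411 protein-coding genes of the RNA-seq tables: SLC2A1, HK2, PFKP, PFKL, ALDOA, GAPDH, ENO1, PKM, LDHA and LDHB. PFKP and LDHB are among the genes known to depend on FTO. Wild-type MOLM-13 cells, a FLT3-mutant AML line, and wild-type NB4 cells, an acute promyelocytic leukemia line, were exposed to 2 μM FP54 or to DMSO for 48 hours, and 3 RNA-seq libraries were made per line and treatment. Both are lines kept in culture. The labels do not say whether the 3 libraries of a group came from separate cultures, so that p-values measure only the spread between these libraries, which may be technical.

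Glycolysis turns glucose into pyruvate in the cytosol. SLC2A1 (GLUT1) brings glucose into the cell, hexokinase 2 (HK2) phosphorylates it, and phosphofructokinase, built from the subunits PFKP, PFKL and PFKM, commits it to the pathway. Aldolase A (ALDOA) splits the sugar, glyceraldehyde-3-phosphate dehydrogenase (GAPDH) oxidizes the fragments, enolase 1 (ENO1) and pyruvate kinase (PKM) complete the way to pyruvate, and lactate dehydrogenase, a tetramer of LDHA and LDHB subunits, interconverts pyruvate and lactate. Leukemia cells are known for a high rate of this pathway even with oxygen present, and several of its genes are textbook targets of hypoxia-inducible factors (HIF) and of MYC.

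In MOLM-13 cells ALDOA was the single member of the 10 that passed the cutoff of the study, an unadjusted p below 0.01 and 0.5 or more on the log2 fold change scale, and it was higher with FP54, as were 9.30% of all tested genes. In NB4 cells ALDOA was again the single member past it, also higher, beside 18.6% of all genes, and none of the 10 was called lower in either line. A count of 1 in 10 is near or below these shares. In NB4 cells 5 further members, SLC2A1, HK2, PFKP, PFKL and LDHA, were higher at an adjusted p below 0.05 (29.8% of all genes) with log2 fold changes between 0.32 and 0.39, none of which passed it with median-ratio scaling of the libraries. In MOLM-13 cells HK2 was the only further one. PFKP was the only member whose change differed between the lines (10.5% of all genes in its direction), a call that most fits leaving out a library did not keep. Of 14 other glycolysis genes tested in NB4 cells, 7 were called higher, beside 18.6% of all genes, and 0 lower, beside 10.7%. Among the 7 were ENO2, ALDOC, HK1 and SLC2A3, with the changes of ENO2 and ALDOC above that of ALDOA. PFKM had a log2 fold change of −0.43 there (adjusted p = 0.0124 from limma).

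The depth was between 5829732 and 22344265 reads on genes per library, as recovered from the deposited values, and the shallowest was FP54 replicate 2 of MOLM-13 cells. In NB4 cells the depth was 20654056 to 22344265 reads with DMSO and 10595648 to 13071305 reads with FP54. These ranges did not overlap, and the part of depth in the NB4 results was not tested. All values are RPKM, reads scaled by gene length and by library size. FTO mRNA in MOLM-13 cells averaged 1.01 RPKM under either treatment (SD 0.0767 for DMSO and 0.117 for FP54, n = 3 each). In NB4 cells its mean was 2.73 RPKM for DMSO (SD 0.18, n = 3) against 2.03 RPKM for FP54 (SD 0.0782, n = 3). FP54 acts on the protein, so the mRNA does not check the treatment. Of 8 myeloid markers, 8 had a mean of at least 1 RPKM in MOLM-13 and 7 in NB4 cells, where ELANE was at 0.15 RPKM with DMSO. The summed myeloid markers were at 2258 to 2528 RPKM in the DMSO libraries of NB4 cells and at 1236 to 1307 RPKM in the FP54 libraries, and overlapped between treatments in MOLM-13 cells. Most of the NB4 sum was MPO (mean 2170 and 1116 RPKM), while the means of CD33 (13.3 and 13.5 RPKM), LYZ (33.65 and 30.3 RPKM) and CEBPA (38.7 and 33.6 RPKM) lay closer together. PRTN3 (61.0 and 15.9 RPKM), SPI1 (80.2 and 60.5 RPKM) and AZU1 (9.96 and 6.88 RPKM) were also lower with FP54 there. Of 8 markers of other cell types (CD3E, CD3D, MS4A1, HBB, EPCAM, KRT19, COL1A1 and COL1A2), 0 reached 1 RPKM in MOLM-13 cells and 2, CD3D and EPCAM, did in NB4 cells. Their summed level in NB4 cells was 13.85 to 15.03 RPKM with DMSO and 18.85 to 22.3 RPKM with FP54, while HBB was at 0 with DMSO and KRT19 was at 0 in all 6 libraries. In the same NB4 libraries 400 olfactory receptor genes, which blood cells are not known to use, averaged 0.00175 to 0.00387 RPKM with DMSO and 0.0509 to 0.0544 RPKM with FP54. The part of these shifts in the results on NB4 cells was not tested beyond the subtraction of the olfactory receptor level, under which ALDOA was still the only member called.

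The windows before the start sites of 3 members are shown first, those of ALDOA, the only one called in both lines, and of the subunit pair LDHA and LDHB, whose fitted changes in NB4 cells had opposite signs. For ALDOA and LDHA, which have several starts, the window shown is the one with the most motif matches. They are the 250 bases upstream of a RefSeq start (GRCh38.p14), 5′ to 3′ on the strand of the gene: ALDOA at chr16:30064247-30064496 on the plus strand, LDHA at chr11:18394313-18394562 on the plus strand, and LDHB at chr12:21657843-21658092 on the minus strand. Capitals mark the core HIF motif, ACGTG or GCGTG on either strand, which overlaps the E-box CACGTG, a motif that MYC is known to bind.
ALDOA: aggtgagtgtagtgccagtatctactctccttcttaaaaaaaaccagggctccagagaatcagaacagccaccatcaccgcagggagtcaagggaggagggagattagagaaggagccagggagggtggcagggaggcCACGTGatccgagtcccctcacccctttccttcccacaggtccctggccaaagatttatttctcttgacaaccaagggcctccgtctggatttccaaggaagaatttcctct
LDHA: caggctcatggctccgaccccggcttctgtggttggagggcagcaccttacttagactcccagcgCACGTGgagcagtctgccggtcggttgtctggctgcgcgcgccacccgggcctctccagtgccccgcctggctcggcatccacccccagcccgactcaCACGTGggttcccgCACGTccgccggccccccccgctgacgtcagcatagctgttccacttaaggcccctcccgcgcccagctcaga
LDHB: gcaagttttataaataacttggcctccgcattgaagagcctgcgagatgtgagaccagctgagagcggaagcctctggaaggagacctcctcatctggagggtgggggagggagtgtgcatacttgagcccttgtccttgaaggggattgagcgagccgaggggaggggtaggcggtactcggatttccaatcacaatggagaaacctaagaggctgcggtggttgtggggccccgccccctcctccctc
With the 50 bases after the start included, the LDHA window held 6 core HIF matches and 2 E-boxes, the ALDOA window held 2 and 1, and the LDHB window held 1 and 0, its match lying after the start. The 2 other windows of ALDOA and the other one of LDHA each held 1 core match and 0 E-boxes. An E-box holds the core on both strands and so counts as 2 core matches. All 10 members matched RefSeq by symbol, with 17 such windows of 300 bases, since PFKP, ALDOA, HK2 and LDHA have several starts. The HIF core was found in 15 of the 17 (88.2%), against 48.4% of the 35116 windows of all genes, and the E-box in 4 of the 17 (23.5%), against 7.26%. The E-box windows belonged to HK2, ALDOA, GAPDH and LDHA. These are matches of letters, and no binding was measured.

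The 10 genes lie on 8 chromosomes (GRCh38, GENCODE release 44), ENO1 and SLC2A1 on chromosome 1, and GAPDH and LDHB on chromosome 12. ALDOA, on chromosome 16 from 30064164 to 30070457 on the plus strand, shares 1472 of the 1640 bases of its main transcript (89.8%) with a read-through gene, ENSG00000285043, that has its own row in the tables. LDHB, on chromosome 12 from 21635342 to 21757857 on the minus strand, shares 997 of 1303 bases (76.5%) with ENSG00000285854. How reads over the shared exons were counted is not given in the sources used here, so the levels and changes of ALDOA and LDHB are uncertain. The read-through gene over ALDOA was at 0.601, 0.758 and 0.66 RPKM with DMSO and 0.895, 0.465 and 1.03 RPKM with FP54 in MOLM-13 cells, and its 2 ranges in NB4 cells were 0.877 to 0.958 RPKM and 1.56 to 1.77 RPKM. The one over LDHB was at 0 in MOLM-13 cells and at 0.0273 RPKM or less in NB4 cells. GAPDH has 65 pseudogenes by name in the annotation, more than any other member, with which reads could be shared.

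**Figure D1:**
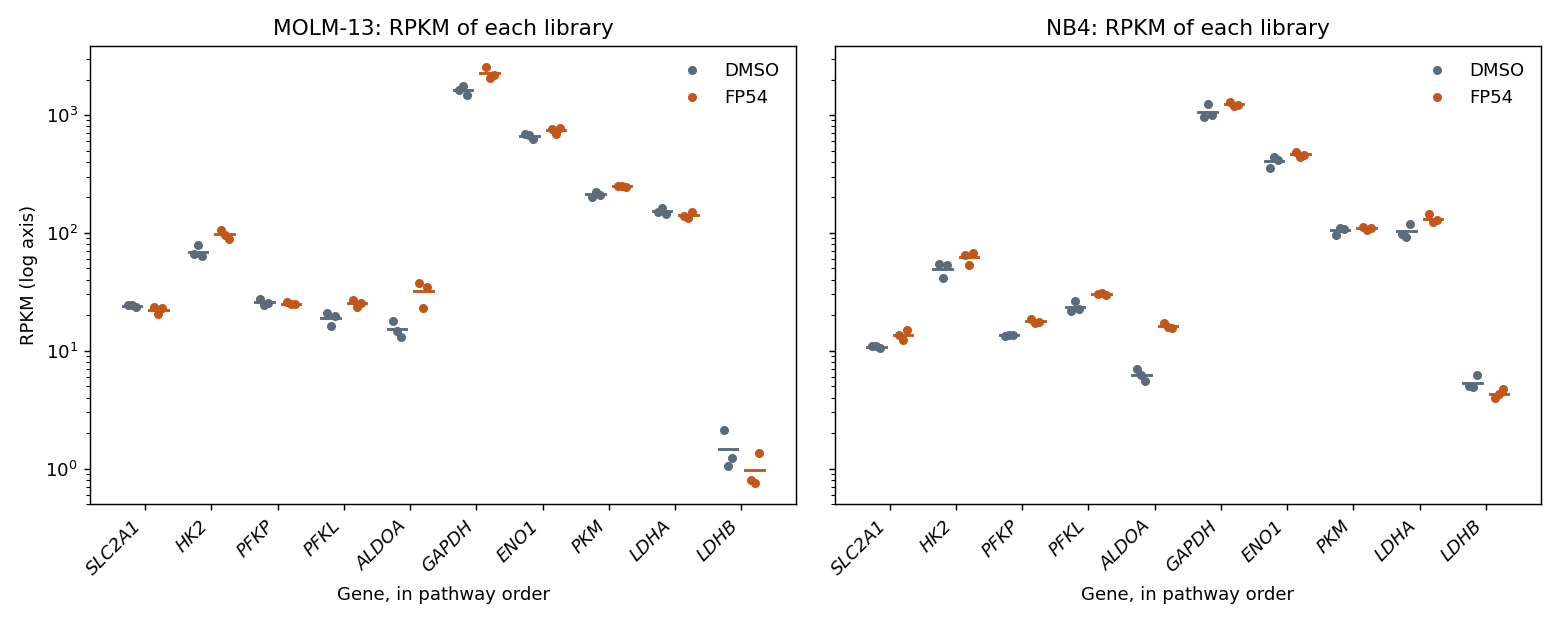
RPKM of the 10 genes on a log axis in MOLM-13 (left) and NB4 cells (right), genes in pathway order; each point is a library and each bar the mean of 3, grey for DMSO and orange for FP54. ALDOA is the gene whose FP54 points stand farthest above its DMSO points in both lines, and LDHB is the lowest gene in each.

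The levels spanned about 3 orders of magnitude. With DMSO, GAPDH was the highest in both lines, at 1625 ± 149 RPKM (SD, n = 3) in MOLM-13 and 1066 ± 145 RPKM (SD, n = 3) in NB4 cells, followed by ENO1 at 662 and 404 RPKM, PKM at 212 and 105 RPKM, LDHA at 153 and 103 RPKM and HK2 at 69.4 and 49.65 RPKM. LDHB was the lowest, at 1.46 ± 0.565 RPKM (SD, n = 3) and 5.37 ± 0.741 RPKM (SD, n = 3). In MOLM-13 cells the order below HK2 was PFKP, SLC2A1, PFKL and ALDOA, and the ranges of neighbours overlapped only for PFKL and ALDOA. In NB4 cells it was PFKL, PFKP, SLC2A1 and ALDOA, and the ranges overlapped for PKM with LDHA and for ALDOA with LDHB. With FP54, ALDOA moved from rank 9 to rank 6 in MOLM-13 cells, where its range overlapped that of PFKL, and from rank 9 to rank 8 in NB4 cells, above SLC2A1. These are levels per length, and the tables of the lines were scaled separately, so levels are set across lines as a description. The levels and ranks of ALDOA and LDHB are also uncertain, since how reads over their shared exons were counted is not given. The DMSO ranges of 8 members lay higher in MOLM-13 than in NB4 cells, by 1.4 times (HK2) to 2.44 times (ALDOA), and those of PFKL (1.25 times) and LDHB (3.67 times) lay higher in NB4 cells. The 10 genes together took 1.11 ± 0.06% (SD, n = 3) of the reads with DMSO and 1.36 ± 0.089% (SD, n = 3) with FP54 in MOLM-13 cells, and 0.69 ± 0.055% (SD, n = 3) and 0.804 ± 0.034% (SD, n = 3) in NB4 cells, without overlap between treatments in either line. Most of these reads were from GAPDH and ENO1. In MOLM-13 cells GAPDH took 0.354 to 0.425% with DMSO and 0.495 to 0.616% with FP54, and ENO1 0.329 to 0.357% and 0.362 to 0.404%. In NB4 cells GAPDH took 0.231 to 0.295% and 0.287 to 0.307%, and ENO1 0.186 to 0.228% and 0.232 to 0.253%. Neither gene had an adjusted p below 0.05 from limma in either line.

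The first comparison asked whether FP54 changed these mRNAs in each line. It used limma with an intensity trend on log2(RPKM + 0.1) over the genes with a mean of at least 1 RPKM (9710 for MOLM-13, 9853 for NB4), and fold changes on this scale understate those of low genes. All 10 members passed this filter in both lines. In MOLM-13 cells 1 of the 10 was called higher, beside 9.30% of all tested genes, and 0 lower, beside 9.04%. At an adjusted p below 0.05, 2 of the 10 were higher, beside 9.84%, and 0 lower, beside 9.32%. In NB4 cells 1 of the 10 was called higher, beside 18.6%, and 0 lower, beside 10.7%. At an adjusted p below 0.05, 6 of the 10 were higher, beside 29.8%, and 0 lower, beside 22.0%. At an unadjusted p below 0.05 there was 0 lower in MOLM-13 cells and LDHB alone in NB4 cells. The share of all genes at this threshold was not worked out, so nothing is read from these counts. The treatments did not overlap, with FP54 higher, for 6 members in MOLM-13 cells (20.2% of all genes) and for 6 in NB4 cells (34.3%), and with FP54 lower for 0 (17.0%) and for 1, LDHB (26.2%).

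The members had a median log2 fold change of 0.20 in MOLM-13 cells, against 0.00 over all tested genes, and of 0.33 in NB4 cells, against 0.07. Median-ratio scaling moved the median of all genes in NB4 cells from 0.07 to −0.13, a shift of −0.20, and turned the split of called genes from 1050 lower and 1834 higher into 2011 lower and 1169 higher, and with quantile normalization it was 1363 lower and 1280 higher. Relative to the median of all genes, the members' median in NB4 cells was 0.26 as deposited, 0.26 with median-ratio scaling and 0.45 with quantile normalization, but 0.090 with no filter and 0.16 with limma-voom on recovered reads. With median-ratio scaling ALDOA was the only member higher at an adjusted p below 0.05 and LDHB was lower, and PKM had a log2 fold change of −0.13 in place of 0.07.

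**Figure D2:**
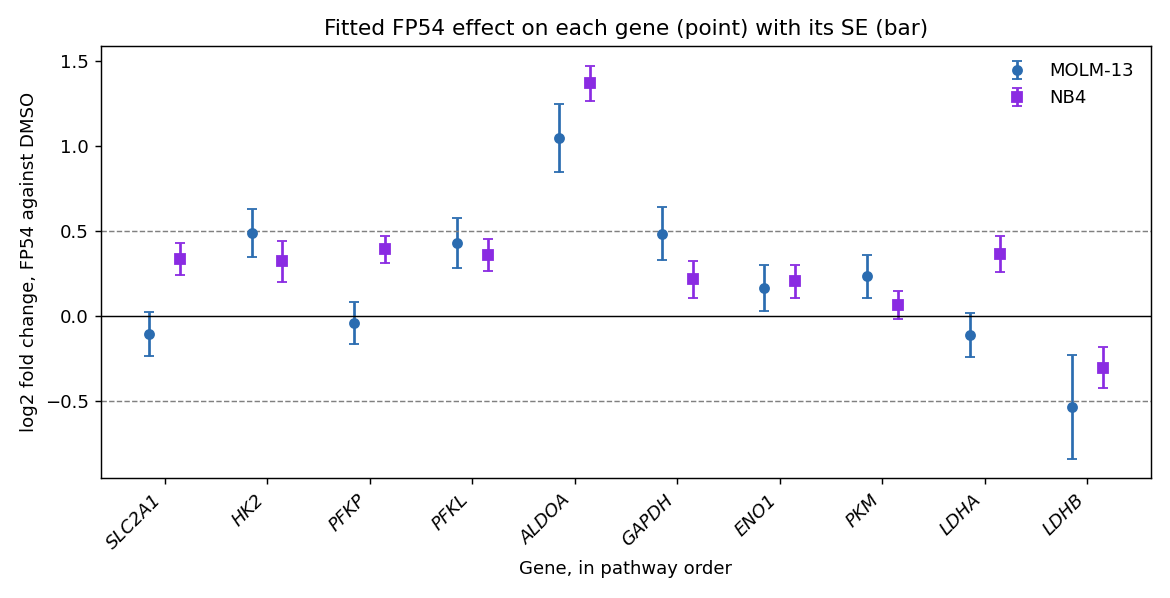
Fitted log2 fold change of FP54 against DMSO for the 10 genes in pathway order (points; circles MOLM-13, squares NB4) with its standard error (bars); dashed lines mark 0.5 in either direction. ALDOA, at 1.05 and 1.37, is the only gene above the upper line, and LDHB is below 0 in both lines.

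Glucose entry and trapping are given by line. In the limma test of the difference between the lines, neither SLC2A1 nor HK2 had an adjusted p below 0.05 (0.0641 and 0.608). SLC2A1, the widespread glucose transporter, was at 24.45, 24.2 and 23.4 RPKM with DMSO and 23.7, 20.4 and 23.0 RPKM with FP54 in MOLM-13 cells, and the treatments overlapped (log2 fold change −0.10, standard error 0.13, adjusted p = 0.6 from limma). In NB4 cells it was at 10.9, 10.9 and 10.5 RPKM with DMSO and 13.6, 12.4 and 14.9 RPKM with FP54. All 3 FP54 libraries of NB4 cells lay above the DMSO libraries, and SLC2A1 rose by 0.34 (standard error 0.09, adjusted p = 0.0121 from limma, 0.00668 to 0.245 over 17 alternatives). HK2, the hexokinase known for its rise in tumors, was at 65.65, 78.9 and 63.8 RPKM with DMSO and 106, 96.4 and 89.0 RPKM with FP54 in MOLM-13 cells. The treatments did not overlap there, and HK2 rose by 0.49 (standard error 0.14, adjusted p = 0.0381 from limma), just under the fold the cutoff asks for. In NB4 cells HK2 was at 54.05, 41.8 and 53.1 RPKM with DMSO and 64.75, 53.8 and 67.2 RPKM with FP54, where the lowest FP54 library lay among the DMSO libraries (log2 fold change 0.32, standard error 0.12, adjusted p = 0.0443 from limma). The adjusted p of HK2 stayed below 0.05 in 10 of 17 alternatives in each line. Of the libraries left out in turn, it was above 0.05 when DMSO replicate 1, DMSO replicate 3 or FP54 replicate 1 was missing in MOLM-13 cells (at most 0.17), and when DMSO replicate 2 or 3 or FP54 replicate 1 or 3 was missing in NB4 cells, where median-ratio scaling gave the highest value (0.401). SLC2A1 was above 0.05 in NB4 cells with FP54 replicate 3 left out.

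The phosphofructokinase subunits PFKP and PFKL had similar changes in NB4 cells. In MOLM-13 cells only PFKL was without overlap between treatments, and neither passed the adjusted threshold. PFKP, the platelet-type subunit, was at 27.3, 24.65 and 25.6 RPKM with DMSO and 25.7, 24.8 and 24.8 RPKM with FP54 in MOLM-13 cells, ranges that overlap (log2 fold change −0.04, standard error 0.12, adjusted p = 0.845 from limma). In NB4 cells PFKP was at 13.46, 13.52 and 13.49 RPKM with DMSO and 18.5, 17.3 and 17.5 RPKM with FP54. The DMSO libraries of NB4 cells were nearly equal and all FP54 libraries lay above them, and PFKP rose by 0.39 (standard error 0.08, adjusted p = 0.00224 from limma, and 0.085 with median-ratio scaling). PFKL, the liver-type subunit, was at 20.9, 16.1 and 19.6 RPKM with DMSO and 27.1, 23.4 and 25.4 RPKM with FP54 in MOLM-13 cells, without overlap (log2 fold change 0.43, standard error 0.15, adjusted p = 0.0639 from limma). In NB4 cells PFKL was at 21.7, 26.5 and 22.6 RPKM with DMSO and 30.1, 30.8 and 29.7 RPKM with FP54. It rose by 0.36 there, again without overlap (standard error 0.09, adjusted p = 0.00806 from limma, and 0.231 with median-ratio scaling).

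ALDOA stood out among the members. In MOLM-13 cells it was at 17.8, 14.6 and 13.1 RPKM with DMSO and 37.7, 23.1 and 35.0 RPKM with FP54, a mean of 210% of DMSO. Every FP54 library was above every DMSO library, and ALDOA rose by 1.05 (standard error 0.20, adjusted p = 0.00867 from limma). In NB4 cells it was at 6.97, 6.23 and 5.51 RPKM with DMSO and 17.1, 15.9 and 15.5 RPKM with FP54, 259% of DMSO. It rose by 1.37 there (standard error 0.11, adjusted p = 4.25e-06 from limma), and was called in all 17 alternatives in each line. The counts behind ALDOA were 515 to 2772 reads per library in MOLM-13 and 471 to 776 in NB4 cells, so counting error is small beside the change. The read-through gene also had higher RPKM with FP54 in NB4 cells, and the part of shared reads in the result was not tested.

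The steps from GAPDH to PKM had smaller differences. GAPDH, often used as a reference gene, was at 1624, 1775 and 1478 RPKM with DMSO and 2569, 2064 and 2199 RPKM with FP54 in MOLM-13 cells. The FP54 libraries all lay higher, at 140% of DMSO on average, and the difference missed the adjusted threshold (log2 fold change 0.48, standard error 0.16, adjusted p = 0.0561 from limma). In NB4 cells GAPDH was at 966, 1232 and 999 RPKM with DMSO and 1282, 1198 and 1210 RPKM with FP54, and DMSO replicate 2 lay within the FP54 range (log2 fold change 0.21, standard error 0.11, adjusted p = 0.114 from limma). Without that library GAPDH had an adjusted p below 0.05 in NB4 cells, as had ENO1. ENO1, the enolase of most tissues, was at 685, 671 and 630 RPKM with DMSO and 763, 694 and 774 RPKM with FP54 in MOLM-13 cells, without overlap (log2 fold change 0.17, standard error 0.14, adjusted p = 0.404 from limma). In NB4 cells ENO1 was at 358, 436 and 418 RPKM with DMSO and 486, 444 and 462 RPKM with FP54, again without overlap (log2 fold change 0.20, standard error 0.10, adjusted p = 0.0952 from limma). PKM, which makes pyruvate and ATP, was at 201, 224 and 211 RPKM with DMSO and 251, 252 and 244 RPKM with FP54 in MOLM-13 cells. These ranges did not overlap either (log2 fold change 0.23, standard error 0.13, adjusted p = 0.211 from limma), while in NB4 cells PKM was at 96.6, 110 and 108 RPKM and 113, 106 and 110 RPKM, with overlap (log2 fold change 0.07, standard error 0.08, adjusted p = 0.523 from limma).

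The subunits of lactate dehydrogenase had opposite signs in NB4 cells. LDHA, the subunit associated with lactate production, was at 152, 161 and 146 RPKM with DMSO and 140, 134 and 152 RPKM with FP54 in MOLM-13 cells, with overlap (log2 fold change −0.11, standard error 0.13, adjusted p = 0.568 from limma). In NB4 cells LDHA was at 98.0, 93.1 and 119 RPKM with DMSO and 144, 125 and 129 RPKM with FP54. The FP54 libraries lay higher, and LDHA rose by 0.36 (standard error 0.10, adjusted p = 0.0141 from limma, 0.262 with median-ratio scaling and 0.0701 without FP54 replicate 1). LDHB, the heart-type subunit, was at 2.11, 1.05 and 1.24 RPKM with DMSO and 0.803, 0.748 and 1.37 RPKM with FP54 in MOLM-13 cells, with overlap (log2 fold change −0.53, standard error 0.31, adjusted p = 0.241 from limma). It rested on 104, 51 and 64 reads and on 46, 13 and 49 reads there, and the 13 reads give a Poisson 95% interval of 0.398 to 1.28 RPKM for counting error only. The intervals of DMSO replicates 1 (1.72 to 2.55 RPKM) and 2 (0.781 to 1.38 RPKM) did not overlap, so that these libraries differed by more than counting error. In NB4 cells LDHB was at 5.00, 4.89 and 6.23 RPKM with DMSO and 3.99, 4.26 and 4.72 RPKM with FP54. All FP54 libraries lay below the DMSO libraries, and the difference missed the adjusted threshold (log2 fold change −0.30, standard error 0.12, adjusted p = 0.06 from limma, 0.0046 to 0.224 over 16 alternatives).

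The second comparison asked whether FP54 acted differently on a gene in NB4 than in MOLM-13 cells, tested with limma as an interaction of line and treatment (12 libraries, 8849 genes). Differences are the log2 fold change in NB4 minus that in MOLM-13 cells. Of the 10 members, 1 had a positive difference at an adjusted p below 0.05, beside 10.5% of all genes, and 0 a negative one, beside 3.75%. With median-ratio scaling the called genes split into 624 positive and 832 negative in place of 926 and 332, with quantile normalization into 813 and 891. The member was PFKP, with a difference of 0.43 (standard error 0.13, adjusted p = 0.0433 from limma). This call was kept in 10 of 23 alternatives, with adjusted p from 0.014 to 0.21, and was lost in 10 of the 12 fits that left out a library, all but those without DMSO replicate 2 or FP54 replicate 2 of MOLM-13 cells. SLC2A1 (0.44, standard error 0.15, adjusted p = 0.0641 from limma) and LDHA (0.47, standard error 0.16, adjusted p = 0.0683 from limma) had differences of the same size that missed the threshold. ALDOA differed by 0.32 between the lines (standard error 0.24, adjusted p = 0.413 from limma) and LDHB by 0.23 (standard error 0.34, adjusted p = 0.698 from limma), and the remaining 5 members by −0.27 to 0.04.

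Ratios of isozymes compare genes within a library and do not depend on its scaling. The log2 ratio of PFKP to PFKL was 0.387, 0.618 and 0.382 with DMSO and −0.077, 0.085 and −0.037 with FP54 in MOLM-13 cells, a shift of −0.47 without overlap. In NB4 cells it was −0.80 ± 0.15 (SD, n = 3) and −0.77 ± 0.06 (SD, n = 3), with overlap. The ratio of LDHA to LDHB was 4.293, 4.25 and 4.253 with DMSO and 5.172, 4.869 and 4.771 with FP54 in NB4 cells, a shift of 0.67 without overlap, and 6.77 ± 0.56 (SD, n = 3) and 7.24 ± 0.39 (SD, n = 3) in MOLM-13 cells, with overlap. LDHA thus made up 95.01 to 95.15% of the summed RPKM of LDHA and LDHB in NB4 cells with DMSO and 96.5 to 97.3% with FP54. LDHB shares 76.5% of its main transcript with a read-through gene. How those reads were counted is not given, so these ratios and shares may not be those of the subunits. The ratio of HK2 to HK1 went from 2.54 ± 0.24 (SD, n = 3) to 3.27 ± 0.26 (SD, n = 3) in MOLM-13 cells and from 3.74 ± 0.24 (SD, n = 3) to 2.87 ± 0.11 (SD, n = 3) in NB4 cells, without overlap in either line and in opposite directions. HK1 is not a member. The log2 fold change of HK2 was positive in both lines (0.49 in MOLM-13 and 0.32 in NB4 cells), and that of HK1 was −0.24 and 1.17. The 4 comparisons without overlap had an exact two-sided permutation p = 0.1, the smallest that 3 libraries against 3 allow, and 0.15 after adjustment over the 6 ratio tests, and the other 2 had exact permutation p = 0.3 (LDHA to LDHB in MOLM-13 cells) and 0.9 (PFKP to PFKL in NB4 cells).

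**Figure D3:**
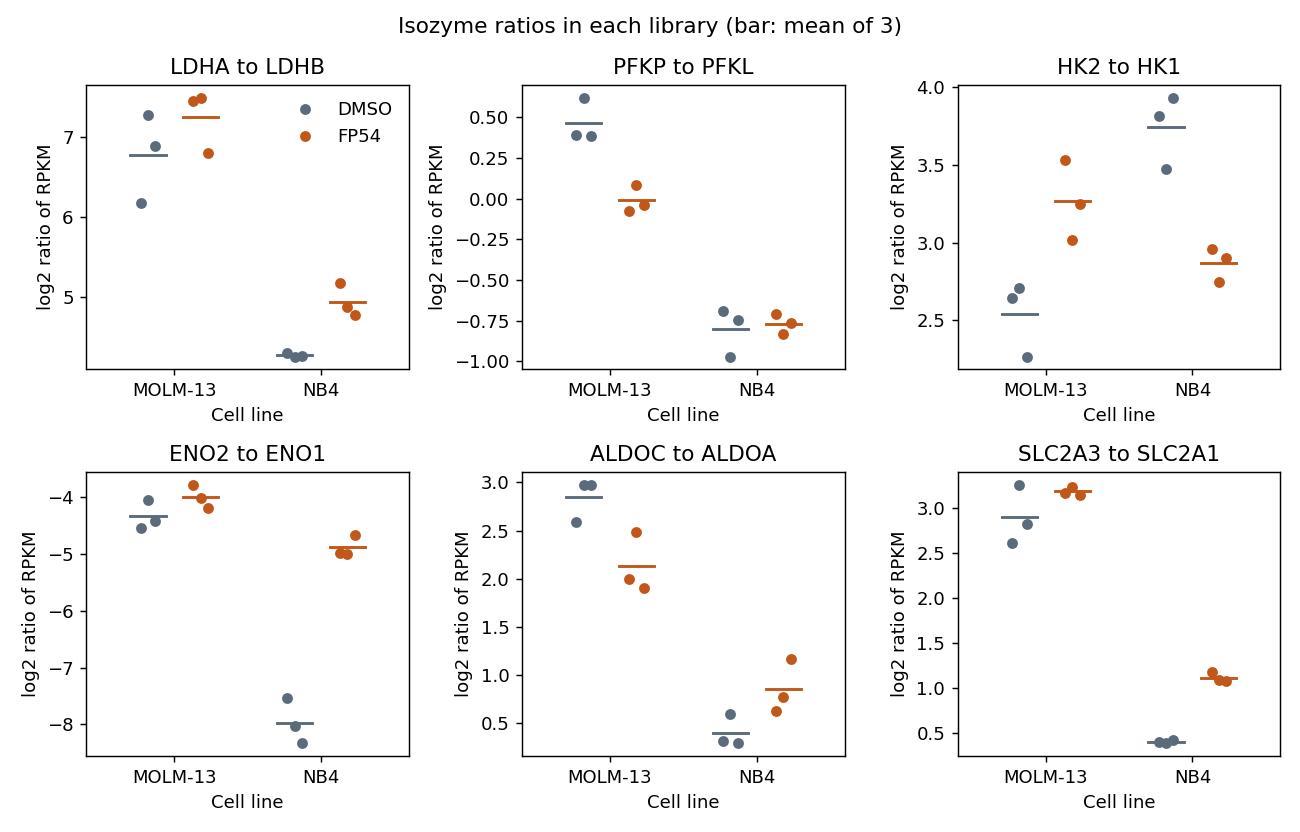
Log2 ratio of the RPKM of paired isozymes in each library (points; grey DMSO, orange FP54) with the mean of 3 (bars), by cell line. HK2 to HK1 goes up with FP54 in MOLM-13 and down in NB4 cells, and ENO2 to ENO1 moves from a mean of −7.97 to −4.88 in NB4 cells.

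Other ratios of members to isozymes were looked at after the values had been seen, as a description. ENO2, the enolase typical of neurons, made up 0.309 to 0.535% of the summed RPKM of ENO1 and ENO2 in NB4 cells with DMSO and 3.04 to 3.8% with FP54, against 4.1 to 5.69% and 5.2 to 6.77% in MOLM-13 cells. ALDOC, the brain-type aldolase, made up 55.1 to 60.2% of the summed RPKM of ALDOA and ALDOC in NB4 cells with DMSO and 60.7 to 69.3% with FP54, and in MOLM-13 cells 85.8 to 88.7% and 79.0 to 84.9%. The share of ALDOC in these RPKM thus moved up in one line and down in the other. ALDOA shares 89.8% of its main transcript with a read-through gene. How those reads were counted is not given, so the shares of ALDOC are uncertain and may be too high. SLC2A3 (GLUT3), a transporter of high glucose affinity, made up 56.7 to 57.3% of the summed RPKM of SLC2A1 and SLC2A3 in NB4 cells with DMSO and 67.9 to 69.4% with FP54, and 85.9 to 90.6% and 89.9 to 90.4% in MOLM-13 cells.

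The other genes of the pathway were read from 4 lists. Of 26 other glycolysis genes (isozymes, transporters and lactate carriers), 14 were tested in NB4 cells and 7 were called higher, beside 18.6% of all genes, and 0 lower, beside 10.7%. At an adjusted p below 0.05, 8 were higher (29.8%) and 2 lower (22.0%). With median-ratio scaling 4 were called higher and 2 lower, and PGK1 (0.37) and GPI (0.35) were then under the fold the cutoff asks for. Their median log2 fold change was 0.50, against 0.07 over all genes. ENO2 was at 1.92, 1.67 and 1.30 RPKM with DMSO and 15.4, 13.9 and 18.2 RPKM with FP54, far apart, and rose by 3.21 (standard error 0.15, adjusted p = 1.72e-07 from limma). ALDOC rose by 1.83, HK1, the housekeeping hexokinase, by 1.17, and SLC2A3 by 1.05. PGK1, which makes ATP from 1,3-bisphosphoglycerate, rose by 0.56, GPI, the isomerase after hexokinase, by 0.54, and ENO3, the muscle enolase, by 0.57 (called in 9 of 16 alternatives). PFKM, the third phosphofructokinase subunit, had a log2 fold change of −0.43 (adjusted p = 0.0124 from limma). In MOLM-13 cells 15 were tested, 2 were called higher (9.30% of all genes) and 1 lower (9.04%), and the median was 0.18, against 0.00. HK3, the hexokinase of myeloid cells, was at 0.457, 0.39 and 0.366 RPKM with DMSO and 1.81, 2.08 and 1.81 RPKM with FP54 and rose by 1.99 (standard error 0.22, adjusted p = 0.00134 from limma), but it passed the filter on low values through the FP54 libraries alone. GPI rose by 0.79 (standard error 0.17, adjusted p = 0.0125 from limma). SLC16A1 (MCT1), a carrier of lactate across the membrane, was at 2.32, 1.76 and 2.38 RPKM with DMSO and 0.78, 0.676 and 1.01 RPKM with FP54, and fell by 1.29 (standard error 0.22, adjusted p = 0.00606 from limma), but its mean was above the filter with DMSO alone. With a filter at 5 RPKM, 1 gene of this list was called higher in MOLM-13 cells and 0 lower.

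**Figure D4:**
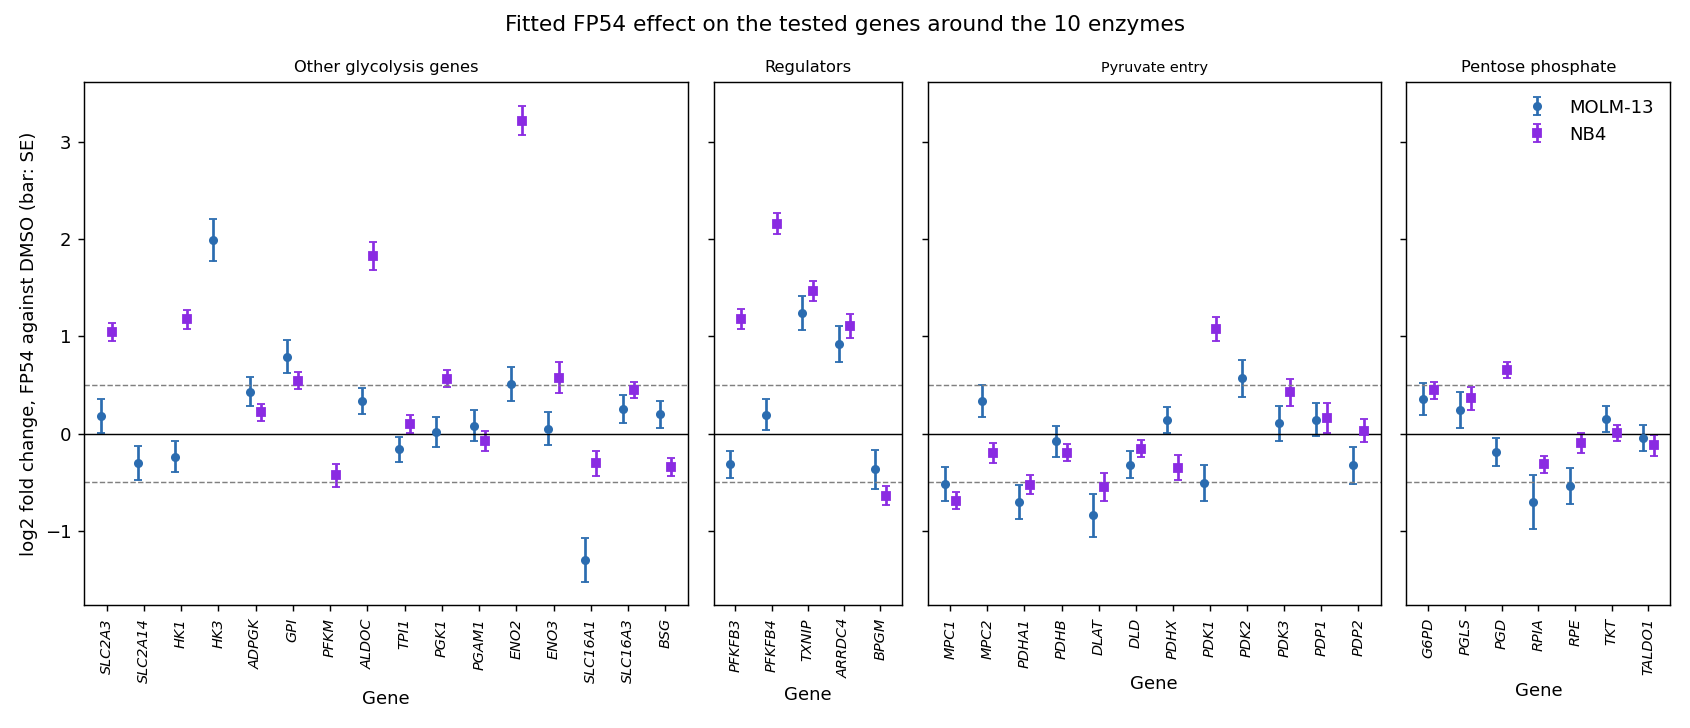
Fitted log2 fold change of FP54 against DMSO (points; circles MOLM-13, squares NB4) with its standard error (bars) for the tested genes of 4 lists around the 10 enzymes; dashed lines mark 0.5 in either direction. ENO2 (3.21) and PFKFB4 (2.16) are the highest in NB4 cells, where MOLM-13 cells are at 0.51 and 0.20.

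Of 8 glycolysis regulators 5 were tested in each line. In NB4 cells 4 were called higher, beside 18.6% of all genes, and 1 lower, beside 10.7%. PFKFB4 and PFKFB3, which make fructose 2,6-bisphosphate, the activator of phosphofructokinase, rose by 2.16 and 1.18, and BPGM, which diverts a glycolytic intermediate, fell by 0.64. TXNIP and its relative ARRDC4, which restrain glucose uptake, rose by 1.46 and 1.11. TXNIP was at 159.5, 191.5 and 132 RPKM with DMSO and 427, 315 and 393 RPKM with FP54 in MOLM-13 cells, where it rose by 1.24 and ARRDC4 by 0.92, the 2 called of this list (9.30% of all genes were called higher), while PFKFB4 was at 0.20 and PFKFB3 at −0.32. The direction of these 2 arrestin-family genes was thus the same in both lines.

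Pyruvate entry into mitochondria was represented by 13 genes, of which 12 were tested in MOLM-13 cells with 2 called lower (9.04% of all genes) and 0 higher (9.30%), and 11 in NB4 cells with 3 lower (10.7%) and 1 higher (18.6%). With libraries left out in turn, the count lower in MOLM-13 cells was 0 in the absence of FP54 replicate 1 and 1 in that of DMSO replicate 1, DMSO replicate 3 or FP54 replicate 2, and the count lower in NB4 cells was 1 in the absence of DMSO replicate 3. PDHA1 and DLAT, subunits of the pyruvate dehydrogenase complex, fell in both lines, by 0.70 and 0.84 in MOLM-13 and by 0.52 and 0.55 in NB4 cells. In MOLM-13 cells PDHA1 was called in 15 of 17 alternatives and DLAT in 13 of 16, and the highest adjusted p from limma came for PDHA1 when DMSO replicate 3 was missing (0.103) and for DLAT when FP54 replicate 1 was missing (0.12). In NB4 cells they were called in 13 and 14 of 17 alternatives. MPC1, a subunit of the mitochondrial pyruvate carrier, fell by 0.69 in NB4 cells. PDK1, the kinase that switches the complex off, rose by 1.08 in NB4 cells and had a log2 fold change of −0.50 in MOLM-13 cells (adjusted p = 0.077 from limma). PDHA1 and DLAT share 28.5% and 25.9% of the bases of their main transcripts with genes on the other strand. The labels name a stranded kit, and whether the strand was used in counting is not given in the sources used here. Of 7 genes of the pentose phosphate pathway, which makes NADPH from glucose 6-phosphate, 7 were tested in each line. In MOLM-13 cells 0 were called higher (9.30% of all genes) and 0 lower (9.04%). RPIA and RPE were there at 59.5% and 69.3% of DMSO with FP54 (adjusted p = 0.102 and 0.0651 from limma), and the treatments overlapped for RPIA. In NB4 cells 1 was called higher (18.6%), PGD, which rose by 0.66, and 0 lower (10.7%).

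Of the 36 genes of these lists that were tested for a difference between the lines, 9 had a positive one at an adjusted p below 0.05, beside 10.5% of all genes, and 1 a negative one, beside 3.75%, a split that median-ratio scaling turned around over all genes. It was positive for ENO2 (2.703), PFKFB4 (1.96), PDK1 (1.58), PFKFB3 (1.49), ALDOC (1.49), HK1 (1.41), SLC16A1 (0.99), SLC2A3 (0.87) and PGD (0.84), and negative for BSG (−0.54), which encodes the chaperone of the lactate carriers. SLC16A1, below 1 RPKM on average with FP54 in MOLM-13 cells, fell there and had a log2 fold change of −0.30 in NB4 cells (adjusted p = 0.0718 from limma). TXNIP (0.23), GPI (−0.25) and PDHA1 (0.18) did not pass this test.

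The genes most like PFKP, LDHB and SLC2A1 were searched over the 12 libraries after the mean of each line had been subtracted from the log2 values, among genes with a mean of at least 5 RPKM in both lines. LDHB itself was below that level and was kept for its own search only. In MOLM-13 cells it averaged 1.46 RPKM with DMSO and 0.972 RPKM with FP54, on 13 to 104 reads per library. Pearson's r is a description here, over 12 libraries that share treatment and depth. For PFKP they were RPL37 (0.96), VLDLR (0.96) and TNFRSF10B (0.95), among 5075 genes. For LDHB they were SAR1A (0.95), TFAM (0.94) and UBE2J1 (0.94), and for SLC2A1 TNFRSF10D (0.95), MYLIP (0.93) and ETS2 (0.92). The lists of the 3 genes had no gene in common.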

How the data were processed

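The 12 RNA-seq libraries (3 per line and treatment) of 22 samples were used; the 10 m6A-seq and polysome-seq samples were not used here. That the NB4 table holds NB4 cells is known from what it is called. The authors selected poly(A) RNA, made stranded libraries, trimmed reads with cutadapt 4.8, removed duplicates, aligned to hg38 with STAR 2.7.11b, counted on GENCODE 42 genes with featureCounts 2.0.3, and deposited RPKM. Gene lengths are not given in the sources used here. With exon-union lengths of GENCODE 44, 98.7 to 99.3% of values of at most 20 reads came out whole (tolerance 0.05).

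Log2(RPKM + 0.1) was fitted with limma 3.58.1 in R 4.3.3 (lmFit, eBayes with trend; genes with a mean of at least 1 RPKM) without the replicate number, with Benjamini-Hochberg adjustment, and tested on simulated data. Tables and permutation tests used Python 3.11.15 with scipy 1.17.1. The members and lists were chosen with earlier results of these data known. Named are all 10 members, tested genes of the lists, FTO, and the 3 genes most like PFKP, LDHB and SLC2A1. Alternatives were pseudocounts of 1 and 0.01, no filter, a filter at 5 RPKM, 2 scalings, a replicate block, 2 other eBayes settings, 2 other cutoffs and leaving out each library. Limma-voom on recovered reads, subtraction of the olfactory receptor level and 3 further isozyme ratios were added after seeing the data. Some markers of other cell types are not reported here. Intervals cover counting error only.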

Additional observations from a re-analysis of the deposited data

Results flagged for a closer look

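The change with FP54 differed between NB4 and MOLM-13 cells, by the interaction test, for 1 of the 10 members and 10 of the 36 tested genes of the lists around them, beside 10.5% of all genes with a positive and 3.75% with a negative difference. The members' count is near that share. The log2 fold change in NB4 minus that in MOLM-13 cells was 0.432 for PFKP. It was 2.703 for ENO2, 1.96 for PFKFB4, 1.581 for PDK1, 1.493 for PFKFB3, 1.489 for ALDOC, 1.412 for HK1, 0.993 for SLC16A1, 0.865 for SLC2A3 and 0.844 for PGD, and −0.54 for BSG. SLC16A1 fell in MOLM-13 cells, so that its positive difference is a smaller change in NB4 cells. Its mean in MOLM-13 cells was above the filter of 1 RPKM with DMSO alone (2.15 RPKM, against 0.821 RPKM with FP54). Nothing is therefore read from its place in the count or from how often it passed. The differences of ENO2, PFKFB4, PDK1, PFKFB3, ALDOC, HK1, SLC2A3 and PGD had an adjusted p below 0.05 from limma in every alternative that could be fitted. That of SLC16A1 had it in 21 of 22, with 0.0703 at a pseudocount of 1, and those of PFKP and BSG in 10 and 11 of 23. No test within the 4 groups of 3 libraries looked for single libraries far from the others.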

How the results depend on the processing

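ALDOA kept its call in both lines under every alternative. The members called higher were 2 in place of 1 with quantile normalization in each line (HK2 in MOLM-13, LDHA in NB4 cells), and at an adjusted p below 0.05 with no minimum fold change 2 in MOLM-13 and 6 in NB4 cells. They were 1 to 2 in MOLM-13 cells when a library was left out, with HK2 added without DMSO replicate 2 or FP54 replicate 3 and GAPDH added without FP54 replicate 2, and 1 in NB4 cells throughout. The members' median log2 fold change in NB4 cells was 0.33, 0.13 with median-ratio scaling and 0.41 with quantile normalization, and 0.26 to 0.37 without single libraries.

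The only member whose change differed between the lines, PFKP, was lost with median-ratio scaling (0 members), with the replicate block (0) and with eBayes without a trend (0), and 0 to 1 members were called when a library was left out. With no filter 3 members were called, and 2 with quantile normalization and with limma-voom. None of the fitted values that changed sign was called. They were PKM in NB4 cells (−0.13 with median-ratio scaling) and, between the lines, ENO1 (−0.14 with median-ratio scaling and −0.0041 with quantile normalization), and with quantile normalization GAPDH (0.0019), PKM (0.076) and LDHB (−0.035). When a library was left out, the line difference of PFKL ranged from −0.15 to 0.039, that of ENO1 from −0.049 to 0.095 and that of LDHB from −0.048 to 0.48.

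For the other lists together, 3 lower and 4 higher genes in MOLM-13 cells became 1 and 2 with a filter at 5 RPKM, 5 lower with median-ratio scaling, and 1 and 2 under the cutoff of p below 0.05 and a log2 change of 1 or more, and without single libraries 1 to 5 lower and 4 to 6 higher. In NB4 cells 4 lower genes became 8 with median-ratio scaling, 8 at an adjusted p below 0.05 and 0 under that last cutoff, and were 2 to 4 without single libraries. ENO2 to ENO1 in NB4 cells shifted by 2.48 with a pseudocount of 1 in place of 3.09.

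Counts over all genes in MOLM-13 cells, 878 lower and 903 higher, became 560 and 509 with a filter at 5 RPKM, and were 545 lower without DMSO replicate 1, 462 and 593 without DMSO replicate 3, and 503 and 540 without FP54 replicate 1. In NB4 cells 1834 higher became 4967 with no filter, 3398 with limma-voom, 789 with a filter at 5 RPKM and 1169 with median-ratio scaling. Between the lines 926 positive differences became 3381 with no filter, 1722 with limma-voom and 432 with a filter at 5 RPKM, and 332 negative ones became 832 with median-ratio scaling, 891 with quantile normalization, 583 with no filter, 201 with a filter at 5 RPKM and 218 with the block, with 199 to 449 negative and 607 to 1146 positive without single libraries (lowest without NB4 FP54 replicates 3 and 2). The causes were not tested.

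To look for pairs, the mean of each group was subtracted from the log2 values of its libraries. These deviations of same-numbered DMSO and FP54 libraries correlated at −0.26, −0.13 and −0.058 in MOLM-13 cells and at −0.14, 0.075 and 0.12 in NB4 cells. In MOLM-13 cells the highest values joined unlike numbers, DMSO replicate 1 with FP54 replicate 3 (0.59), 2 with 1 (0.49) and 3 with 2 (0.47). In NB4 cells the highest was 0.22, for DMSO replicate 1 with FP54 replicate 3. The numbers were therefore not taken as pairs, and a block by number does not follow these unlike numbers. Their cause was not tested. With the replicate block 1 member was called in each line, as without it. The number of libraries, 3 per group, limits every test.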
